A study of Mus musculus with 8 samples.

Results

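The extracellular matrix genes examined here are the collagens, the matrix metalloproteinases (MMPs), the ADAMTS proteases, the tissue inhibitors of metalloproteinases (TIMPs), the lysyl oxidases, and the glycoprotein Sparc and elastin (Eln). They were taken by gene symbol from the array's annotation, which gave 82 genes with 118 probes, out of 16593 named genes. Each gene is represented by its probe with the highest mean intensity over the 8 arrays. Fibronectin (Fn1) and fibrillin-1 (Fbn1), also asked for by name, were not analysed here.

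Gene expression was measured on Illumina mouse bead arrays in L929 cells, a fibroblast line from mouse connective tissue, and in L929 cells that carry ectopic IRF8, called L929IRF8. IRF8 belongs to the interferon regulatory factors and is best known from macrophages, dendritic cells and B cells. The 4 groups were untreated L929, L929 given 1000 U/ml interferon beta (IFNβ) for 4 h, untreated L929IRF8, and L929IRF8 given the same IFNβ treatment, with 2 arrays in each group. All cells grew in the same medium with foetal calf serum. The labels do not say how IRF8 was introduced, whether L929IRF8 is 1 clone, or whether the L929 cells carry an empty vector.

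Fibroblasts secrete collagen chains that assemble into trimers. Fibrillar collagens form the fibres of connective tissue, type IV chains form the network of basement membranes, and lysyl oxidases crosslink both collagen and elastin. MMPs and ADAMTS enzymes are metalloproteinases that cut these proteins, and TIMPs block the active site of most MMPs. Transcription of several MMP genes is classically driven by AP-1, a dimer of Jun and Fos proteins. Interferons act on transcription through DNA elements called ISRE and GAS.

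Intensities are background-subtracted array units. A value at or under 23.7, the size of the most negative value on any array, was treated as not above background. Intensities of different probes do not compare as transcript levels, so each gene is compared only with itself. Log2 changes are on the scale log2(intensity + 16) with the standard error (SE) from limma. A gene passed where limma's p, corrected by Benjamini-Hochberg across the 25697 probes on the array, was under 0.05, and this is the adjusted p given throughout. With 2 arrays in a group, p-values measure the spread between these arrays, and an exact two-sided permutation test of 2 against 2 arrays cannot go below p = 0.333. In RNA from a whole culture, fewer cells that express a gene and less RNA per cell cannot be told apart.

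Both lines responded to IFNβ. Of the 9 interferon-response genes used as a check, 8 rose in each line; Mx1, for example, rose at least 63.2-fold in L929 (adjusted p = 0.00495) and at least 59.6-fold in L929IRF8 (adjusted p = 0.00611). The 1 Irf8 probe read between -2.3 and 7.8 on all 8 arrays, under the background bound in both lines, so it did not check the labels. Of 11 fibroblast markers, 6 were above the bound (Pdgfra, Pdgfrb, Vim, S100a4, Prrx1 and Ddr2), and Thy1, Dcn, Lum, Fap and Twist1 were not. The summed fibroblast marker intensity was 21450 to 22530 in untreated L929, 21150 to 21290 in L929 with IFNβ, 19010 to 20300 in untreated L929IRF8 and 18540 to 22410 in L929IRF8 with IFNβ. Such a sum follows its brightest probes and does not show that each marker was steady. Myeloid markers were near background, with 2 of 9 above the bound (Cd14 and Lyz2) and Ptprc, Itgam and Spi1 not. Of the epithelial markers 1 of 7 was above it (Cldn7), and of the endothelial markers 1 of 7 (Kdr).

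A minority of the matrix genes gave a signal, and so did a minority of all probes, with 11411 of 25697 above the bound in mean. Here and below, matrix counts take each gene by its brightest probe, while shares over all probes count every probe, so the units differ. Of the 82 genes, 31 exceeded the background bound in the mean of the 8 arrays, 28 of them on every array, and 45 were under it on all 8. The faintest gene above the bound was Col4a5, with a mean of 32.2, and the brightest gene below it was Col9a1, with a mean of 20.5. Mmp2 exceeded the bound in mean only through its 4 IFNβ arrays. A fit restricted to probes above the bound therefore selects Mmp2 by its treated values and adds no support for its rise. The 51 genes not above the bound are accounted for in the family descriptions below. Values for those above it are shown in the plot of intensity by array.

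**Figure D1:**
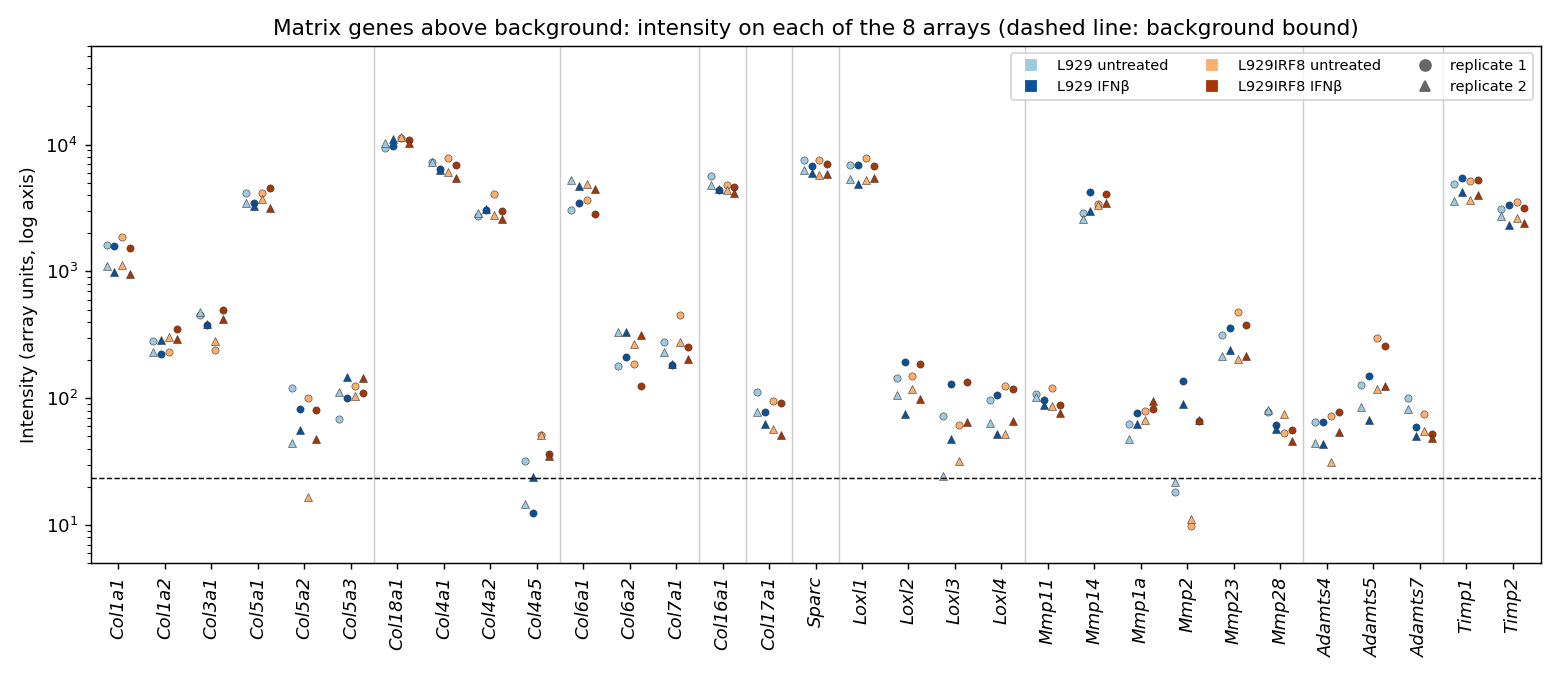
Intensity (array units, log axis) of each of the 31 matrix genes above the background bound, on the 8 arrays; colour marks the group, a circle replicate 1 and a triangle replicate 2, and the dashed line is the bound of 23.7. Vertical lines part the gene families. Mmp2 is the gene whose untreated arrays all lie under the bound while its IFNβ arrays lie above it.

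Among the 11 fibrillar collagens, 6 were above the bound, namely both chains of type I collagen (Col1a1 and Col1a2), the type III chain Col3a1, and the 3 type V chains Col5a1, Col5a2 and Col5a3. The cartilage collagens Col2a1, Col11a1 and Col11a2 were not, nor were Col24a1 and Col27a1. Of the 8 basement membrane and multiplexin genes, Col4a1, Col4a2, Col4a5 and Col18a1, the source of the fragment endostatin, were above it. Of the 6 beaded-filament, network and anchoring collagens, 3 were above it: Col6a1, Col6a2 and Col7a1, the collagen of anchoring fibrils. Col16a1 was the only 1 of 6 fibril-associated genes above the bound, and Col17a1, a collagen of hemidesmosomes, the only 1 of 6 transmembrane and other collagens. In all, 15 of 37 collagens gave a signal. Sparc, a collagen-binding glycoprotein, was above the bound and elastin was not.

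Of the enzymes, 4 of the 5 lysyl oxidases were above the bound. Loxl1, Loxl2, Loxl3 and Loxl4 gave a signal, while Lox itself read between -13.9 and -4.8. Of the 20 MMPs, 6 were above it: the gelatinase Mmp2, the membrane-bound Mmp14, the collagenase Mmp1a, stromelysin-3 (Mmp11), Mmp23 and Mmp28. The gelatinase Mmp9 was not, with values from 9.6 to 23.0, and neither, by the probe with the highest mean, were Mmp3, Mmp7, Mmp8, Mmp10, Mmp12, Mmp13, Mmp16, Mmp17, Mmp19, Mmp1b, Mmp20, Mmp21 and Mmp24. Of the 14 ADAMTS genes, the aggrecanases Adamts4 and Adamts5 and also Adamts7 were above it. Timp1 and Timp2 gave strong signals on all arrays, while Timp3, with values from -0.6 to 17.5, and Timp4, with values from -7.9 to 13.3, were under the bound on all 8.

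Several of the MMP genes share a position and a promoter element. RefSeq promoter windows (GRCm38.p6, 250 bases before to 50 after the annotated start) were found for 58 of the 82 genes, in 64 windows. Mmp2 had no window, so its promoter was not searched for any of the elements below. The AP-1 letters TGACTCA, which read TGAGTCA on the other strand, were in 8 of the 64 windows (12.5%) and in 5.2% of all 32851 windows in the table. The 8 genes are Col6a1, Mmp1a, Mmp1b, Mmp3, Mmp7, Mmp10, Mmp12 and Mmp13. All 7 MMPs among them lie on chromosome 9, where 9 MMPs have a window. The stretches below show the AP-1 letters in capitals in the 1 of these MMPs above the bound, its close copy Mmp1b, the stromelysin Mmp3 and the collagenase Mmp13, and in Col6a1, 5′ to 3′ on the gene's strand.
Mmp1a, chr9:7464038-7464104, plus strand, 73 bases before the start: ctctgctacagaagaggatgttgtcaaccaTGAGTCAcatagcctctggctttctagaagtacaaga
Mmp1b, chr9:7388083-7388149, minus strand, 93 bases before the start: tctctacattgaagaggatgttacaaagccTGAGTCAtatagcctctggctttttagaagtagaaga
Mmp3, chr9:7445746-7445812, plus strand, 46 bases before the start: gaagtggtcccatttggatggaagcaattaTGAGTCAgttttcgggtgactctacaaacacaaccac
Mmp13, chr9:7272449-7272513, plus strand, 35 bases before the start: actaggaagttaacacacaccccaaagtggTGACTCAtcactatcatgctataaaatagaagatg
Col6a1, chr10:76726098-76726164, minus strand, 90 bases before the start: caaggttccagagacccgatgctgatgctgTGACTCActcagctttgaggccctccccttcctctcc
A match describes letters and does not show that a factor binds there.

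Of the 7 MMPs with these letters, 6 were not above the bound in mean and 5 were under it on all 8 arrays. Most MMPs read this way: of all 20, only 6 were above the bound in mean and 12 were under it on all 8. Mmp8 and Mmp20, on chromosome 9 with a window but without these letters, were also under it on all 8. A link between the letters and the signal was not tested. With its brighter probe, Mmp1a was above the bound on all 8 arrays. It read 63.2 and 47.5 in untreated L929, 75.9 and 63.1 in treated L929, 79.8 and 67.9 in untreated L929IRF8 and 81.9 and 95.2 in treated L929IRF8. The dimmer Mmp1a probe read between 14.2 and 30.8, with a mean of 23.5, just under the bound. Mmp1a and Mmp1b are close copies, so part of the signal of either gene's probes may come from the other gene. Mmp1b read between -11.7 and 1.6. The core of the ISRE, read as GAAA, any 2 bases and GAAA on either strand, was in 1 of the 64 windows (Mmp13) and in 3.44% of all. The GAS letters TTCNNNGAA were in 3 of the 64, in Col28a1 and Mmp23, and in 8.3% of all. The Mmp23 matches are the same site, counted in overlapping windows of that gene.

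The first comparison asked which matrix genes respond to 4 h of IFNβ in L929. Mmp2, which encodes gelatinase A, an enzyme that cuts denatured and basement membrane collagen, was the 1 matrix gene that rose, and none fell. Of all probes, 0.996% rose and 0.28% fell. Without adjustment, 4 of the 82 genes had p under 0.05, or 4.88%, against 9.88% of all probes. Mmp2 read 18.2 and 21.7 in untreated L929 and 136.0 and 89.9 after IFNβ. The untreated arrays were at background and the treated arrays clearly above it, with no overlap. Its mean was 19.95 ± 2.47 untreated and 113.0 ± 32.6 treated (SD, n = 2 each), a rise of at least 4.67-fold, with a log2 change of 1.82 ± 0.179 (SE) and an adjusted p of 0.0263. Within replicate 1 the log2 change was 2.15 and within replicate 2 it was 1.49.

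A gain in Mmp2 was also seen in the L929IRF8 arrays. The SE is estimated from all 8 arrays together, so the tests in the 2 lines are not independent. Mmp2 read 9.8 and 11.2 in untreated L929IRF8 and 66.5 and 66.8 after IFNβ. The groups did not overlap, and again the untreated arrays were under the bound. Its mean was 10.5 ± 0.99 untreated and 66.65 ± 0.212 treated (SD, n = 2 each), a rise of at least 2.81-fold, with a log2 change of 1.64 ± 0.179 (SE) and an adjusted p of 0.0398. Mmp2 was again the 1 matrix gene that rose and none fell, where 0.864% of all probes rose and 0.21% fell. Without adjustment 4 of the 82 genes had p under 0.05, or 4.88%, against 9.78% of all probes. The within-replicate log2 changes were 1.68 and 1.61.

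The 2 calls rest on few arrays. In L929 the adjusted p was 0.0625 with the replicate number as a block, 0.113 and 0.0831 without untreated L929 replicate 1 and 2, 0.0877 without either untreated L929IRF8 array and 0.0871 without either treated L929IRF8 array, while without treated L929 replicate 1 or 2 it was 0.0138 or 0.0105. In L929IRF8 it was 0.0806 with the block, 0.108 with an offset of 64, 0.0573 with an intensity trend and 0.134 with values raised to the bound. With 1 array left out it was 0.124 for each of the untreated L929 arrays, 0.139 and 0.103 without untreated L929IRF8 replicate 1 and 2, 0.122 and 0.116 without treated L929IRF8 replicate 1 and 2, and 0.0168 without either treated L929 array. The log2 change stayed between 1.56 and 2.08 in L929 and between 1.60 and 1.68 in L929IRF8 when 1 array was left out.

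**Figure D2:**
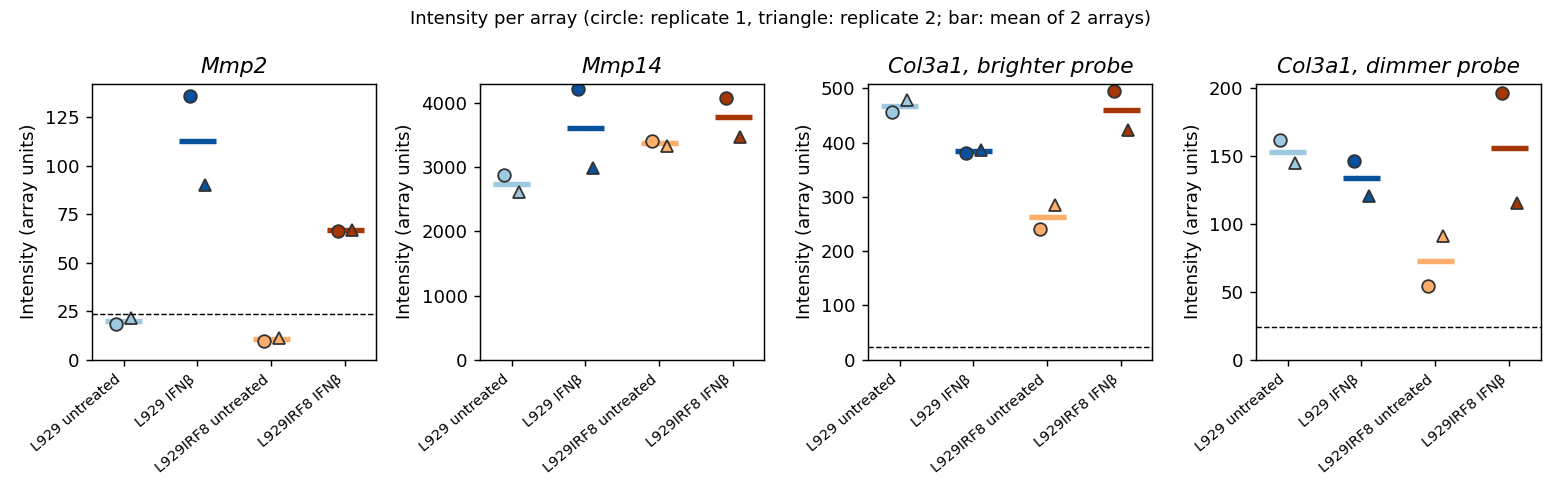
Intensity (array units) of Mmp2, Mmp14 and both Col3a1 probes on each array; circles are replicate 1, triangles replicate 2, bars the mean of the 2 arrays of a group, and the dashed line the background bound of 23.7. Mmp2 lies under the bound in both untreated groups and between 66.5 and 136.0 after IFNβ; Col3a1 is lowest in untreated L929IRF8 with both probes.

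Mmp14 encodes MT1-MMP, the membrane-bound protease that activates the secreted MMP2 proenzyme together with TIMP2. It read 2876 and 2613 in untreated L929 and 4223 and 2985 after IFNβ. The treated arrays lay above the untreated ones, 1.3-fold on average, but the log2 change of 0.37 ± 0.187 (SE) did not pass (adjusted p = 0.711). In L929IRF8 it read 3416 and 3329 before and 4083 and 3472 after IFNβ, a log2 change of 0.16 ± 0.187 (adjusted p = 0.908). Timp2 read 3124 and 2749 untreated and 3311 and 2304 treated in L929, and 3498 and 2631 untreated and 3172 and 2410 treated in L929IRF8. In each line the Timp2 groups overlapped, with log2 changes of -0.09 ± 0.259 and -0.13 ± 0.259. Timp1, which inhibits most secreted MMPs, also overlapped between groups, with log2 changes of 0.19 ± 0.279 in L929 and 0.08 ± 0.279 in L929IRF8. Within replicate 1 and replicate 2 the Timp1 changes were 0.16 and 0.23 in L929, and 0.02 and 0.13 in L929IRF8. For Timp2 they were 0.08 and -0.25 in L929, and -0.14 and -0.13 in L929IRF8.

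No other protease passed, and among those above the bound Adamts7 had the lowest p in L929. Adamts7, a protease that cuts cartilage oligomeric matrix protein, read 100.7 and 81.7 untreated and 59.7 and 50 treated in L929. Both treated arrays lay below both untreated arrays, with means of 91.2 ± 13.4 and 54.85 ± 6.86 (SD, n = 2 each) and a log2 change of -0.60 ± 0.159 (SE, adjusted p = 0.294). In L929IRF8 it read 75.0 and 55.5 untreated and 52.7 and 48.7 treated, again without overlap (log2 change -0.27 ± 0.159, adjusted p = 0.788). Mmp28, or epilysin, read 77.7 and 80.9 untreated and 61.6 and 57.5 treated in L929, 1.33-fold lower (adjusted p = 0.627). In L929IRF8 the Mmp28 arrays overlapped. A second Mmp28 probe was under the bound on all 8 arrays, between -8.9 and 5.7. Mmp1a was 1.26-fold higher after IFNβ in L929 (adjusted p = 0.798) and 1.2-fold higher in L929IRF8 (adjusted p = 0.788). With the dimmer Mmp1a probe the log2 changes were 0.13 ± 0.28 in L929 and 0.07 ± 0.28 in L929IRF8. Mmp11 was 1.25-fold lower in L929IRF8 (adjusted p = 0.756). The Mmp13 probes differed from each other in treated L929IRF8. Its probe with the highest mean read 15.3 and 24.0 there, and 24.5 and 13.0 untreated. Another probe, ILMN_2737685, read 42.6 and 23.1 there, and between -6.9 and 4.8 on the other 6 arrays. On that probe 1 treated L929IRF8 array was thus above the bound, and the log2 change of 1.47 ± 0.252 (SE) in L929IRF8 did not pass (adjusted p = 0.122). This probe is named after its values were seen.

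No collagen passed in either line. Over the 31 genes above the bound the median log2 change was -0.056 in L929, beside -0.075 over all probes above the bound, with 11 genes above 0 and 20 below it. In L929IRF8 it was -0.079, beside -0.072, with 12 genes above 0 and 19 below it. Type I collagen, the main fibrillar collagen of connective tissue, differed by less than its replicates. Col1a1 read 1603 and 1098 in untreated L929, 1578 and 982.1 with IFNβ, 1883 and 1129 in untreated L929IRF8 and 1530 and 949.9 with IFNβ. Replicate 1 was the higher Col1a1 array in each group. Within replicate 1 and replicate 2 the Col1a1 log2 change was -0.02 and -0.16 in L929, and -0.30 and -0.25 in L929IRF8. Col1a2 lay between 221.5 and 353.9 on all arrays. Col7a1 was lower after IFNβ in both lines: it read 280.2 and 232.8 untreated and 183.2 and 187.6 treated in L929, and 454.2 and 275.6 untreated and 253.8 and 203.1 treated in L929IRF8. The groups of each line did not overlap, but neither the log2 change of -0.43 ± 0.26 (SE, adjusted p = 0.798) nor that of -0.61 ± 0.26 (adjusted p = 0.589) passed. Col16a1 was 1.18-fold lower in L929 (adjusted p = 0.641), and Col5a3 was 1.39-fold higher there with overlapping arrays (adjusted p = 0.798).

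**Figure D3:**
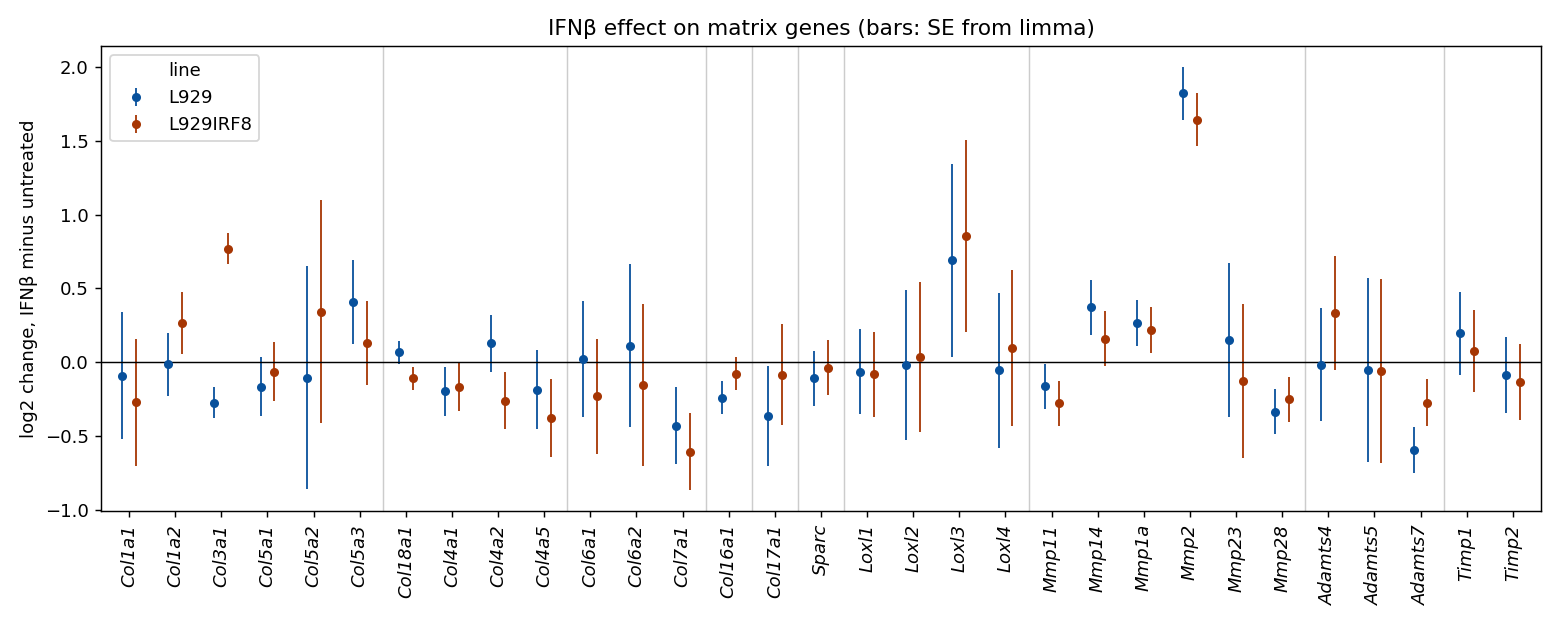
Log2 change with IFNβ for the 31 matrix genes above the bound in L929 (blue) and L929IRF8 (red); bars are SE from limma and vertical lines part the families. Mmp2 stands at 1.82 and 1.64, Col3a1 at -0.27 and 0.77, and the other genes lie between -0.61 and 0.86.

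The lysyl oxidase Loxl3 had a large change and a large error. It read 72.6 and 24.2 untreated and 130.5 and 47.4 treated in L929, with overlap, and 61.3 and 32.2 untreated and 133.6 and 65.5 treated in L929IRF8, without. Its log2 changes were 0.69 ± 0.653 (SE, adjusted p = 0.871) and 0.86 ± 0.653 (adjusted p = 0.798). In each group replicate 1 was the higher array. Within replicate 1 and replicate 2 the log2 change was 0.73 and 0.66 in L929, and 0.95 and 0.76 in L929IRF8. Loxl1, Loxl2 and Loxl4 had log2 changes between -0.08 and 0.10 in both lines.

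Col3a1, the chain of type III collagen, which is laid down with type I in soft tissues, had the smallest p of the collagens above the bound when the IFNβ effects of the lines were compared. It read 457.3 and 477.8 in untreated L929, 380.4 and 387.0 in L929 with IFNβ, 241.5 and 284.9 in untreated L929IRF8 and 496.0 and 424.1 in L929IRF8 with IFNβ. The untreated L929IRF8 arrays were the lowest 2 of the 8, and no pair of groups compared here overlapped. In L929IRF8 the mean was 263.2 ± 30.7 untreated and 460.1 ± 50.8 with IFNβ (SD, n = 2 each), 1.75-fold higher with a log2 change of 0.77 ± 0.106 (SE) that missed the threshold (adjusted p = 0.0744; 0.0428 when only the 11411 probes above the bound were tested). In L929 the mean was 467.6 ± 14.5 untreated and 383.7 ± 4.67 with IFNβ, 1.22-fold lower (log2 change -0.27 ± 0.106, adjusted p = 0.517). The difference between these 2 effects, tested as an interaction, was 1.04 ± 0.151 on the log2 scale and did not pass (adjusted p = 0.39). It was 1.25 within replicate 1 and 0.84 within replicate 2.

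The second Col3a1 probe, which is dimmer, read 161.4 and 145.0 in untreated L929, 146.2 and 120.6 with IFNβ, 54.2 and 91.0 in untreated L929IRF8 and 196.1 and 115.0 with IFNβ. Again the 2 untreated L929IRF8 arrays were the lowest. With this probe the log2 change with IFNβ was 0.94 ± 0.316 in L929IRF8 (adjusted p = 0.433) and -0.18 ± 0.316 in L929 (adjusted p = 1.0), and the interaction was 1.13 ± 0.447 (adjusted p = 1.0). For chains of the collagens that form fibres with type III, the interaction was -0.18 ± 0.61 for Col1a1, 0.28 ± 0.299 for Col1a2 and 0.10 ± 0.283 for Col5a1.

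The next comparison was between the untreated lines, which asks what ectopic IRF8 goes with before IFNβ. No matrix gene passed in the limma fit, where 0.0156% of all probes did. Without adjustment 10 of the 82 genes had p under 0.05, or 12.2%, against 5.52% of all probes, but 7 of these were not above the background bound in mean. The 3 above it were Col3a1, Col4a5 and Col18a1. Col4a5 is among them only through its L929IRF8 arrays, as its L929 means were 23.3 untreated and 18.15 with IFNβ. Col3a1 was 1.78-fold lower in L929IRF8 (log2 difference -0.80 ± 0.106, adjusted p = 0.339), and with its second probe the log2 difference was -0.96 ± 0.316 (adjusted p = 0.814). Col4a5, a minor chain of type IV collagen, read 51.5 and 51.3 in L929IRF8, against 32.0 and 14.6 in L929. Both arrays of L929IRF8 were the higher ones, but 1 L929 array was under the bound (log2 difference 0.81 ± 0.267, adjusted p = 0.812).

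The other differences between the untreated lines were smaller. Col18a1 read 11366 and 11563 in L929IRF8, against 9488 and 10291 in L929, and was 1.16-fold higher without overlap (adjusted p = 0.892). Its other probe above the bound by a wide margin, ILMN_2937542, read 532.4 and 384.4 in L929IRF8, against 346.3 and 363.3 in L929 (log2 difference 0.34 ± 0.199, adjusted p = 0.967). Adamts7 was 1.41-fold lower in L929IRF8 without overlap (adjusted p = 0.928) and Mmp28 1.25-fold lower (adjusted p = 0.967). Mmp1a was 1.34-fold higher and Col7a1 1.39-fold higher (adjusted p = 0.967 for each). With the dimmer Mmp1a probe the log2 difference was 0.06 ± 0.28. For Mmp2 no fold is given, because both untreated groups were under the bound. Adamts5, the main aggrecanase of mouse cartilage, read 297.2 and 119.2 in L929IRF8, against 127.8 and 86.1 in L929, a log2 difference of 0.76 ± 0.622 with overlap (adjusted p = 0.968).

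After IFNβ the lines were again compared with each other. No matrix gene passed in the limma fit, where 0.00389% of all probes did, and 4 of the 82 had an unadjusted p under 0.05 (4.88%, against 4.99% of all probes). Mmp2 was 1.66-fold lower in L929IRF8, with 66.5 and 66.8 against 136.0 and 89.9 in L929. The arrays did not overlap, and the log2 difference of -0.62 ± 0.179 (SE) did not pass (adjusted p = 0.799). The interaction for Mmp2 was -0.18 ± 0.254 (adjusted p = 1.0), so a difference between the lines in the size of its response was not shown. Col4a5 read 36.4 and 35.3 in L929IRF8, against 12.4 and 23.9 in L929, on the same side as in untreated cells (log2 difference 0.62 ± 0.267, adjusted p = 1.0). Col3a1, lower in untreated L929IRF8, was 1.2-fold higher there after IFNβ (log2 difference 0.25 ± 0.106, adjusted p = 1.0). Col1a2 was 1.27-fold higher and Col6a2 1.35-fold lower in L929IRF8 (adjusted p = 1.0 for each), the Col6a2 arrays overlapping.

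**Figure D4:**
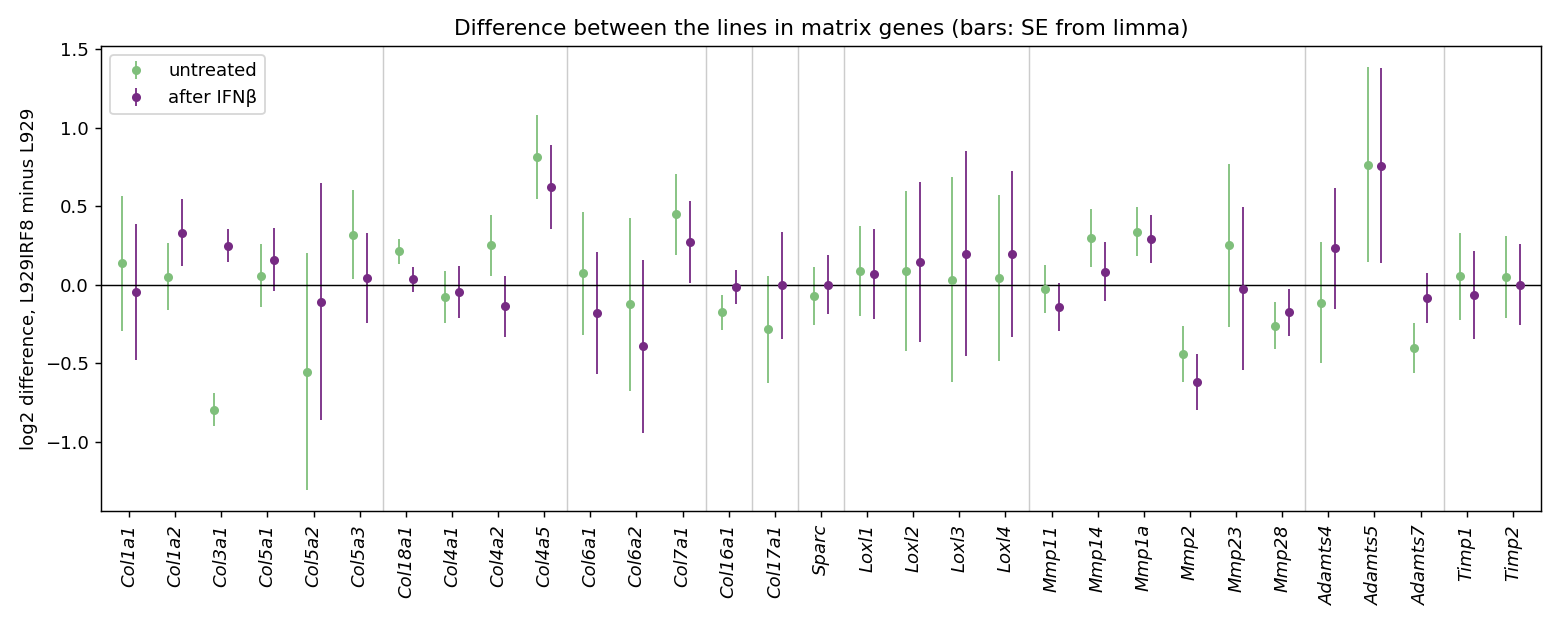
Log2 difference between L929IRF8 and L929 for the 31 matrix genes above the bound, in untreated cells (green) and after IFNβ (purple); bars are SE from limma. Col3a1 stands at -0.80 in untreated cells and 0.25 after IFNβ, and Col4a5 is above 0 in both.

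For the interaction as a whole, no matrix gene passed in the limma fit, where 0.00389% of all probes did, and 3 of the 82 had an unadjusted p under 0.05 (3.66%, against 4.77% of all probes). The medians over the 31 genes above the bound were near those over all probes above it: 0.053 beside 0.0027 for the untreated lines, 0.0015 beside 0.0019 after IFNβ and -0.018 beside -0.0013 for the interaction. The IFNβ comparisons share their untreated arrays with the comparison of the untreated lines. Apart from Col3a1, the next interactions by p were 0.32 ± 0.225 for Adamts7, 0.16 ± 0.158 for Col16a1 and 0.28 ± 0.299 for Col1a2 among the positive ones. The lowest among the negative ones were -0.18 ± 0.113 for Col18a1, -0.39 ± 0.272 for Col4a2 and -0.21 ± 0.264 for Mmp14. All had adjusted p = 1.0.

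Some of the matrix genes parted by the replicate number of the arrays and not by group. In 11 of the 31 genes above the bound (35.5%), all 4 arrays labelled replicate 1 were above all 4 labelled replicate 2, against 7.35% of all probes above the bound. In another 2 (6.45%, against 8.39%) all 4 were below, and in 18 the numbers overlapped. The 11 genes were Col1a1, Col5a2, Sparc, Loxl1, Loxl2, Loxl4, Mmp23, Adamts4, Adamts5, Timp1 and Timp2. The labels call the replicates independent and do not say what arrays of the same number share, and these counts are a description with no test.

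Col1a1 read 1530 to 1883 on the replicate 1 arrays and 949.9 to 1129 on the replicate 2 arrays, 1.58-fold higher in replicate 1. Timp1 read 4881 to 5437 against 3593 to 4230, and its second probe 4494 to 5338 against 3285 to 3855. Both Timp1 probes therefore parted by number without overlap. Sparc read 6842 to 7552 against 5717 to 6343, Loxl1 read 6755 to 7837 against 4901 to 5477, and Adamts5 was 1.88-fold higher. The 2 genes that went the other way, Col6a1 and Col6a2, encode chains of the same type VI collagen trimer. Col6a1 read 2859 to 3664 on the replicate 1 arrays and 4505 to 5277 on the replicate 2 arrays, 1.49-fold lower in replicate 1. Col6a2 read 124.4 to 213.1 against 267.8 to 334.1, 1.73-fold lower. For Col3a1 and Mmp2 the numbers overlapped, with mean log2 differences of -0.02 and 0.07.

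**Figure D5:**
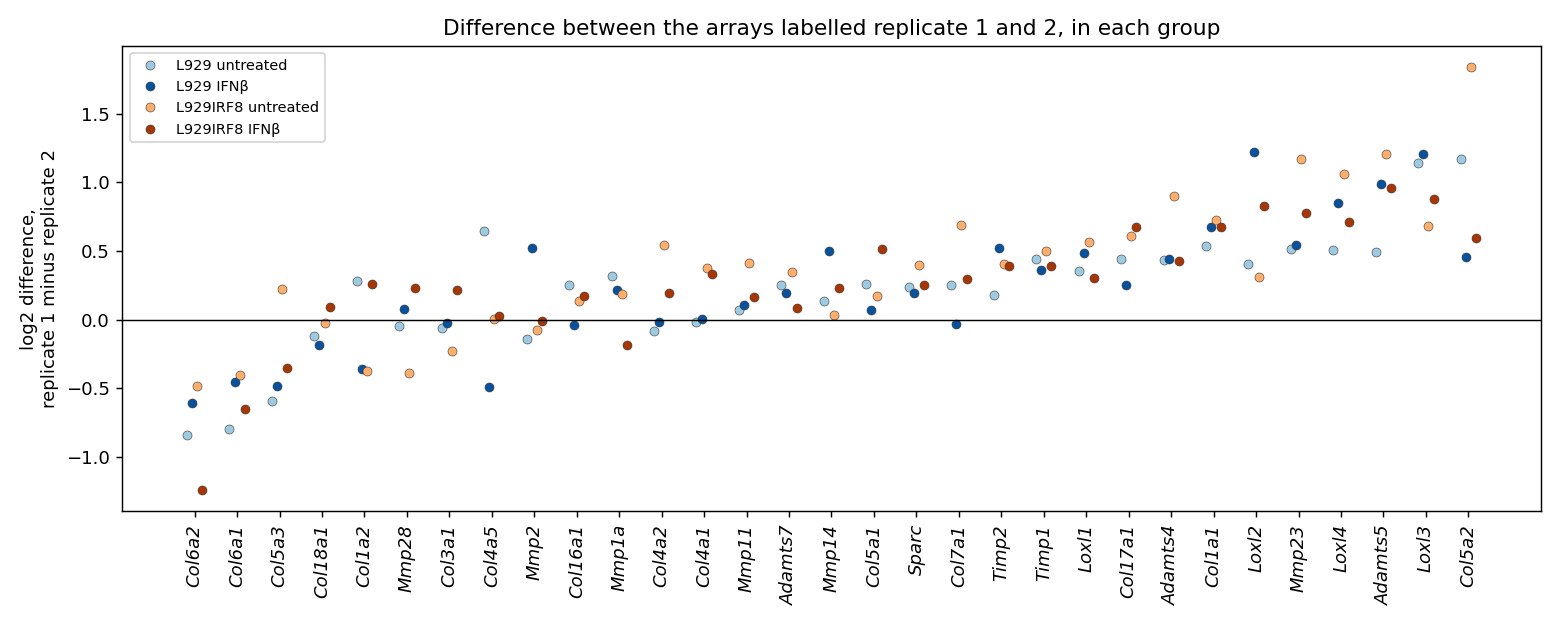
Log2 difference between the array labelled replicate 1 and the array labelled replicate 2, in each of the 4 groups, for the 31 matrix genes above the bound, ordered by their mean. Col6a2 and Col6a1 lie below 0 in all 4 groups, and 17 genes lie above 0 in all 4.

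Of the other bright collagens, none passed. Col4a1 lay between 5492 and 7889 on the 8 arrays, Col4a2, which pairs with it in the type IV collagen trimer, between 2613 and 4054, and the fibrillar chain Col5a1 between 3148 and 4515. Their log2 changes with IFNβ were -0.20, 0.13 and -0.17 in L929 and -0.17, -0.26 and -0.07 in L929IRF8. Mmp23 read 316.1 to 479.3 on the replicate 1 arrays and 204.4 to 239.2 on the replicate 2 arrays, and its groups overlapped in all comparisons.

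Genes around the matrix genes were counted from lists chosen with earlier results of these data known. None of them passed in any of the 5 comparisons of the limma fit: collagen assembly and crosslinking enzymes (23 on the array), other matrix glycoproteins and proteoglycans (26), collagen and fibronectin receptors (12), TGF-beta signalling and its matrix targets (18), the plasminogen system and other protease control (16) and AP-1 subunits (6). The shares over all probes were small too: with IFNβ 0.996% rose and 0.28% fell in L929, and 0.864% and 0.21% in L929IRF8. The median log2 change of the 5 AP-1 subunits above the bound was -0.25 in L929 and -0.27 in L929IRF8. Over all probes above the bound it was -0.075 and -0.072. The other lists had medians from -0.22 (other matrix) to 0.05 (plasminogen system) in L929, and from -0.11 (TGF-beta) to -0.04 (other matrix) in L929IRF8. Among the fibroblast markers 1 gene passed. Pdgfra, the receptor for platelet-derived growth factor that marks fibroblasts, read 235.3 and 213.5 in untreated L929IRF8 and 103.4 and 112.0 with IFNβ. It fell 2.08-fold (log2 change -0.96 ± 0.087, adjusted p = 0.0239), and in L929 it read 334.0 and 341.4 untreated and 218.9 and 253.4 with IFNβ, where the change did not pass. Among the myeloid markers Adgre1 passed in L929, with values from -5.4 to 8.9 that are all under the bound.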

How the data were processed

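The authors deposited linear intensities of 25697 probes on 8 arrays, with RNA from a column kit and biotin labelling per the labels' protocols. Their processing tool is not given in the sources used here. Judged by their values, the deposited intensities were background-subtracted (28.1% to 28.3% of probes on an array are below 0) and quantile normalized (sorted arrays differ by at most 1.7), which hides any change shared by most genes. They were not normalized again. Probes were named from the platform annotation: 23978 have 1 symbol and 1719 none. Of the 82 genes, 23 have several probes.

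Negative intensities were taken as 0 and log2(intensity + 16) was computed, which understates changes of dim genes. limma 3.58.1 (lmFit, eBayes) in R 4.3.3 fitted 4 group means to all 8 arrays, with 4 residual degrees of freedom plus 0.684 from eBayes and no block. The fit was also run on simulated data in which the arrays varied independently. That run does not cover deviations shared by arrays of the same replicate number. Folds are ratios of geometric means in which no value counts as less than the bound, and are given as "at least" where 1 group lies wholly under it. The number of arrays limits the precision.

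The genes and lists were chosen with earlier results of these data known. Named genes are those that passed, the 4 with the smallest p in each direction and comparison, the 15 with the highest mean, the TIMPs and the lysyl oxidases; Adamts5, Col5a2, Loxl2 and others in the description by replicate number were named after their values were seen. Alternatives were an offset of 64, probes above background alone, median centring, an intensity trend, the replicate block, the gene's other probes and leaving out each array, and, added after seeing the data, values raised to the bound.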

Additional observations from a re-analysis of the deposited data

Results flagged for a closer look

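Col3a1 stands out because, with its brighter probe, every array of the treated group was higher than every untreated array in L929IRF8 and lower in L929. The difference between the lines' IFNβ effects was 1.045 on the log2 scale (SE 0.151, limma adjusted p = 0.39, range over the alternatives 0.126 to 1.0), so this difference did not pass its test. The second Col3a1 probe gave 1.13 with an SE of 0.447, but its L929 groups overlapped (146.2 on 1 treated array, 145.0 on 1 untreated array).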

How the results depend on the processing

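Of 571 values of a named gene under an alternative, 548 kept their direction and their side of the threshold, 17 kept the direction but no longer passed, 1 newly passed (Col3a1 with IFNβ in L929IRF8, above) and 5 reversed: Col18a1 with probe ILMN_1225839, near the bound, for the untreated lines (-0.27) and the interaction (0.52), Col6a2 for the lines after IFNβ without treated L929IRF8 replicate 1 (range -1.01 to 0.229 leaving out 1 array), and the interactions of Mmp14 (-0.462 to 0.0362) and Mmp2 (-0.440 to 0.0812) without treated L929 replicate 1; the cause was not tested. The number of matrix genes called in L929 with IFNβ was 0 with the replicate block and 0 to 2 when 1 array was left out. In L929IRF8 it was 0 with an offset of 64, the replicate block, an intensity trend or values raised to the bound, 2 with probes above background alone (Mmp2 and Col3a1), and 0 to 2 leaving out 1 array. For the untreated lines, after IFNβ and the interaction it was 0 to 1, 0 to 2 and 0 to 1 when 1 array was left out. Apart from Mmp2, genes called only on leaving out an array were all under the bound in mean. Over all probes, 328 passed in L929 (182 with values raised to the bound, 217 to 469 leaving out 1 array) and 276 in L929IRF8 (170; 135 to 526). For the untreated lines 4 passed (0 with an offset of 64, with bright probes alone or with the replicate block, 19 with a trend, 0 to 264 leaving out 1 array), after IFNβ 1 (0 with bright probes or the block, 19 with a trend, 6 raised to the bound, 0 to 266) and for the interaction 1 (0, 0, 11, 8 and 0 to 142 in the same order). The median log2 change of the 31 genes above the bound ranged, leaving out 1 array, from -0.223 to 0.118 and -0.234 to 0.163 for IFNβ in L929 and L929IRF8, -0.194 to 0.254 and -0.127 to 0.199 for the lines untreated and after IFNβ, and -0.169 to 0.184 for the interaction. A group left with 1 array is assumed to vary like the others. Median centring moved no array, and leaving out an array of a group outside a comparison cannot alter its log2 change. Before any alternative only Mmp2 passed, so the 17 lost calls are all of Mmp2. The 548 are therefore mostly genes that had no call to lose, and they do not measure how firm the Mmp2 calls are. Arrays with the same replicate number deviated together (r = 0.441 to 0.523 over probes above the bound, 6 pairs of groups), but with 2 numbers per group this is a hint and not the design. Other probes under the bound in mean were not used as alternatives.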
